A study of Rattus norvegicus with 30 samples.

Results

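Methylated regions near the ends of the 20 rat autosomes were examined in the prefrontal cortex (PFC). Peaks from different animals that shared 1 bp or more were joined into one region, and a region was kept when it held a called peak in 3 or more animals. A region belonged to a chromosome end when its start lay within 3000000 bp of the highest peak end seen on that chromosome in any animal. This gave 7345 regions of 352026 (2.09%), and the other 344681 regions of the same chromosomes served as the comparison. The farthest of the 7345 regions lay 2999658 bp from the last peak end, and the nearest region outside the window lay 3000296 bp from it. Because the last peak and not the assembled end of the chromosome set the window, distances are given from that last peak. Coordinates are those of the Rn6 assembly, as in the deposited files.

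DNA methylation (DNAm) was measured by meDIP-seq, in which an antibody against 5-methylcytosine pulls methylated DNA fragments out of a sequencing library. The 30 animals were Sprague-Dawley rats at postnatal day 22, the offspring of 15 dams, with 10 animals each in the Control (CON), pair-fed (PF) and prenatal alcohol exposed (PAE) groups. PAE dams had free access to a liquid ethanol diet during gestation, PF dams received a liquid control diet without ethanol in the amount eaten by a PAE partner, and CON dams had free access to a pelleted control diet. Whole PFC tissue was used, so cell types were not separated, and 2 animals of each dam were sampled.

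A chromosome end is made of telomere repeats, followed inwards by subtelomeric DNA that often holds duplicated segments and many genes. The smaller rat chromosomes, 14 to 20, are metacentric, so both of their ends are ends of arms, whereas most larger ones have their centromere close to one end. Subtelomeric CpG sites are methylated in most adult cells, and DNAm there takes part in keeping telomere-proximal chromatin closed. The start of the coordinates of an acrocentric chromosome lies near its centromere, where satellite repeats are densely methylated.

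Between 11548314 and 16555049 filtered fragments lay behind each library, and 2027 to 3786 of the 7345 end regions were called per animal (median 2678). The height of a peak is its pileup, the number of fragments covering its summit, per 1000000 filtered fragments of that library (FPM). Animals without a called peak, or with a lower one, were set to a floor of 0.438. No input library was used in peak calling, so more DNAm and a better recovery of the same DNA cannot be told apart. The labelled sex went against the share of peaks on chromosome X in 18 of the 30 libraries. That share was high in 7 libraries, most of them PF, and low in 23. The groups were thus uneven in it, and a covariate for labelled sex does not adjust for this. Labelled sex enters the comparisons below only as a covariate, given with and without it, and in the closing section as a split by label. The 5 sequencing lanes did not hold the groups evenly, since no PF library was on lane 4 and no PAE library was on lane 7.

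The ends of the chromosomes held fewer methylated regions than the rest. If the density of the rest of each chromosome had held in its last 3 Mb, 8406 regions would have been found there, against 7345 observed, a ratio of 0.874. Counted within single animals, the ratio was 0.834 at the lowest, 0.873 at the median and 0.896 at the highest (SD over animals 0.0167). Every one of the 30 animals thus lay below 1. The animals share a common set of regions, so this is not the spread over chromosomes, of which 8 of 20 lay above 1. The median density over chromosomes was 118 regions per Mb in the last 3 Mb and 135 in the rest. The first 3 Mb of the chromosomes, also part of the rest, held a median of 114 regions per Mb, with 38.0 at the lowest and 186 at the highest. On 12 of 20 chromosomes the last 3 Mb were denser than the first 3 Mb. By group, the ratio was 0.847 at the lowest, 0.864 at the median and 0.896 at the highest in CON animals. The same values were 0.834, 0.878 and 0.886 in PF animals and 0.835, 0.872 and 0.896 in PAE animals, so the groups overlapped. Its mean over the animals of a lane was 0.863 to 0.879. The ratio depended on the window, as it was 0.608 for the last 1 Mb and 1.002 for the last 5 Mb.

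The chromosomes differed far more from each other than the animals did. Chromosome 5 had the densest end relative to its own rest, with 597 regions in 3 Mb, or 199 per Mb against 128 elsewhere (ratio 1.56). Its ratio in single animals ran from 1.44 to 1.90. Chromosome 4 followed with 496 regions and a ratio of 1.33, and chromosome 3 with 487 regions and a ratio of 1.23. On both, each animal lay above 1.

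The opposite was seen at the ends of chromosomes 20, 16 and 18. Chromosome 20 held 223 regions in its last 3 Mb, 74.3 per Mb against 168 in its rest, a ratio of 0.442. That window ranked 18 of 18 among the 3 Mb windows of chromosome 20 counted back from its end. In single animals the ratio of chromosome 20 was 0.251 to 0.424, below the merged value in each of them. Chromosome 16 had 203 regions and a ratio of 0.490, and chromosome 18 had 211 regions and a ratio of 0.505. Chromosome 2 had 197 regions at its end, the fewest of the 20 chromosomes, and a ratio of 0.560.

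In all, 8 chromosomes had a ratio above 1 and 12 below it. The ratio was above 1 in each of the 30 animals for 4 chromosomes and below 1 in each for 10, and the remaining 6 had animals on both sides. Chromosomes 14 to 20 were below 1 in 7 of 7 cases, and chromosomes 1 to 13 were above 1 in 8 of 13. This grouping was chosen after the values were seen and was not tested. In each set a chromosome lay close to 1. Chromosome 19 had a ratio of 0.979, with 7 animals above 1, and chromosome 13 had 1.01, with 22 animals below 1. Chromosome 12 had the most regions at its end, 603 or 201 per Mb, but its rest was dense as well, and its ratio was 1.13. The widest stretch between the starts of neighbouring end regions lay on chromosome 10, 348049 bp from chr10:111847128 to chr10:112195177, beside its very last regions. No genome of this build was used here, so unassembled bases inside the windows were not counted.

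**Figure D1:**
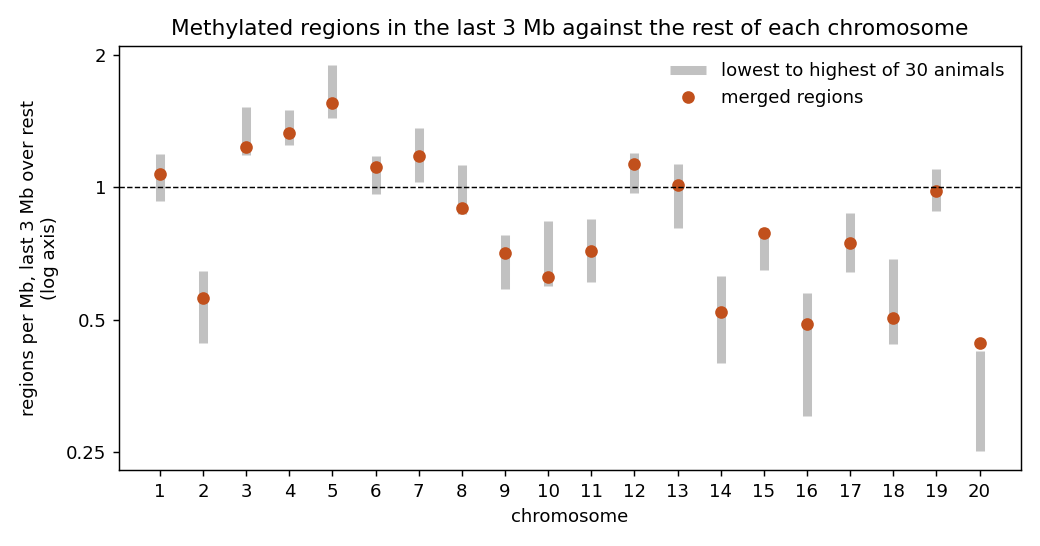
Regions per Mb in the last 3 Mb divided by regions per Mb in the rest, for each of 20 chromosomes, on a log axis. Points are merged regions, grey bars run from the lowest to the highest of 30 animals, and the dashed line marks equal density. Chromosome 5 lies highest at 1.56 and chromosome 20 lowest at 0.442.

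Within the window, density fell steadily towards the end. Between 2.5 and 3 Mb from the last peak there were 173 regions per Mb over the 20 chromosomes. This number was 150 between 2 and 2.5 Mb, 129 between 1.5 and 2 Mb, and 112 between 1 and 1.5 Mb. It reached 86.9 between 0.5 and 1 Mb and 83.3 in the last 0.5 Mb. On 18 of 20 chromosomes the last 0.5 Mb held fewer regions than the interval from 2.5 to 3 Mb. The exceptions were chromosome 18, with 52 against 33 regions, and chromosome 20, with 54 against 29. Just outside the window it was 159 regions per Mb, between 3 and 3.5 Mb, and it passed 173 again only between 4.5 and 5 Mb (174). The densest step of the last 10 Mb was that between 6.5 and 7 Mb, with 204 regions per Mb.

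Peak height was also lower near the end. The median height was 0.825 FPM between 2.5 and 3 Mb, 0.791 between 1.5 and 2 Mb, 0.708 between 0.5 and 1 Mb, and 0.717 in the last 0.5 Mb. The local background that the deposited fold enrichment implies was 0.142 FPM between 2.5 and 3 Mb and 0.0865 FPM in the last 0.5 Mb. With no input library, it was estimated from the same immunoprecipitated fragments and is not a separate measurement. All 3 were lower in the outermost 0.5 Mb than at the inner edge of the window, though height was at its lowest a step before the last. The part of the background in the other 2 was not tested.

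**Figure D2:**
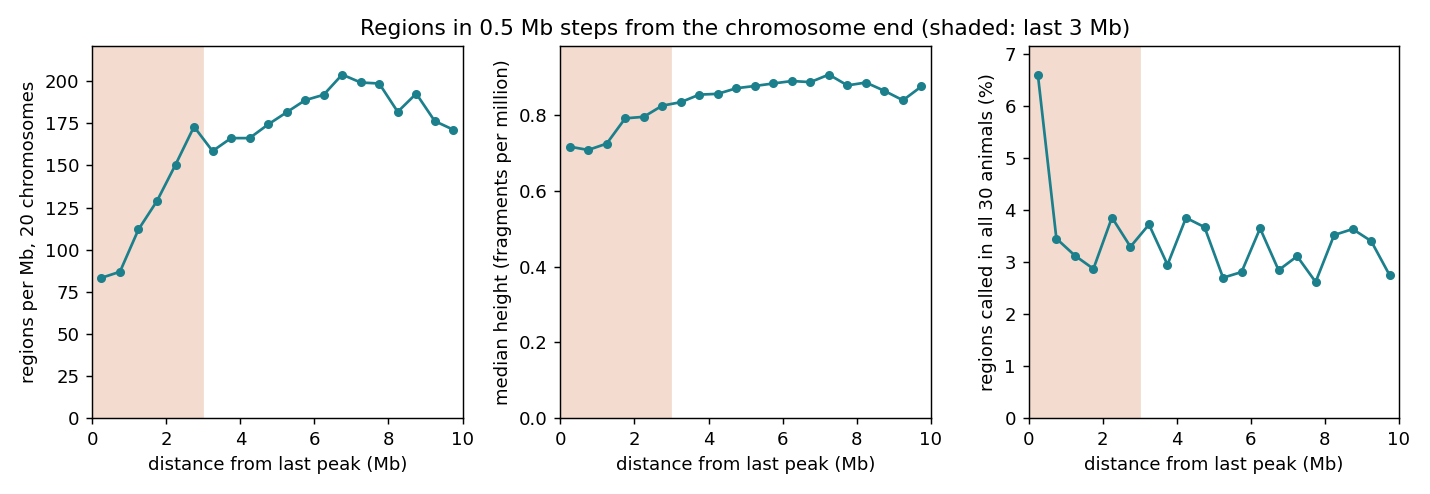
Density of regions over the 20 chromosomes, their median height in FPM (fragments per 1000000), and the percentage called in all 30 animals, in 0.5 Mb steps against distance from the last peak (Mb). The shaded part is the last 3 Mb. Density rises from 83.3 to 173 regions per Mb across it, while the percentage called in all animals is 6.60 in the outermost step and at most 3.86 in the others of the window.

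Over the whole window, single regions at the ends looked much like those elsewhere. Their length had a median of 534 bp (256 to 2650 bp), against 544 bp in the rest. A region was called in a median of 8 animals in both sets, and 35.0% of the end regions were called in only 3 to 5 animals, against 34.0% of the rest. The median height was 0.772 FPM in both, with quartiles of 0.641 and 0.948 at the ends and of 0.642 and 0.946 in the rest. Heights above 2 FPM were reached by 55 end regions (0.749%) and by 0.793% of the rest.

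Compared within each animal and chromosome, the ends were slightly lower. The mean log2 height of called peaks at the ends minus that of the rest was -0.037 ± 0.013 (SD, n = 30), and it was negative in 30 of 30 animals. In CON animals this difference was -0.054 at the lowest, -0.039 at the median and -0.017 at the highest. In PF animals the same values were -0.049, -0.037 and -0.0005, and in PAE animals they were -0.062, -0.040 and -0.025. The 3 groups overlapped over most of their range.

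Ends that were dense tended to have higher peaks. Of the 8 chromosomes with a ratio above 1, 5 had a higher median height at the end than in the rest, and of the 12 below 1, 11 had a lower one. Chromosome 5 had a median height of 0.879 at its end and 0.768 in its rest, and chromosome 20 had 0.664 and 0.845. Across the 20 chromosomes, the log2 ratios of density and of height had a Pearson correlation of 0.87. This is a description, since both are taken from the same peaks and share the local background. The local background was 0.179 against 0.115 FPM on chromosome 5 and 0.0846 against 0.146 on chromosome 20. At the ends of chromosomes 14, 16 and 18 it was 0.0846, 0.0837 and 0.0845, nearly the value of chromosome 20. Whether the estimate has a lower limit there was not tested.

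The regions called in every animal were set apart. There were 272 such regions at the ends (3.70%), against 3.38% of the rest and 6.84% of the regions in the first 3 Mb. Their median length was 861 bp and their median height 1.29 FPM, and the lowest of them had a height of 0.679. Of the 55 end regions with a height above 2, 39 were called in all 30 animals.

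Chromosome 12 held the most of them in its last 3 Mb, 26. At the very tip, a pair of chromosomes stood out. In the last 0.5 Mb, 55 of 833 regions (6.60%) were called in all animals, and 23 of the 55 lay on chromosomes 10 and 18. The other 249 of the 272 lay elsewhere in the windows. On chromosome 18 it was 13 of 52 regions (25%), between chr18:87747958 and chr18:88200639, with heights from 1.10 to 2.80 and a median of 1.73 FPM. On chromosome 10 it was 10 of 36 regions (27.8%), between chr10:112195177 and chr10:112563399, with heights from 1.01 to 3.05 and a median of 1.76.

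No other chromosome had more than 5 of them in its last 0.5 Mb, and 2 had none. Without chromosomes 10 and 18, the share was 32 of 745 regions (4.30%). Over the whole 3 Mb window, regions called in every animal made up 10.9% of the end regions of chromosome 18 and 6.89% of those of chromosome 10, against 3.04% and 2.67% of the rest of these chromosomes. Both chromosomes had few regions in the last 3 Mb, with ratios of 0.505 and 0.624. These 2 chromosomes were singled out after their values were seen.

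**Figure D3:**
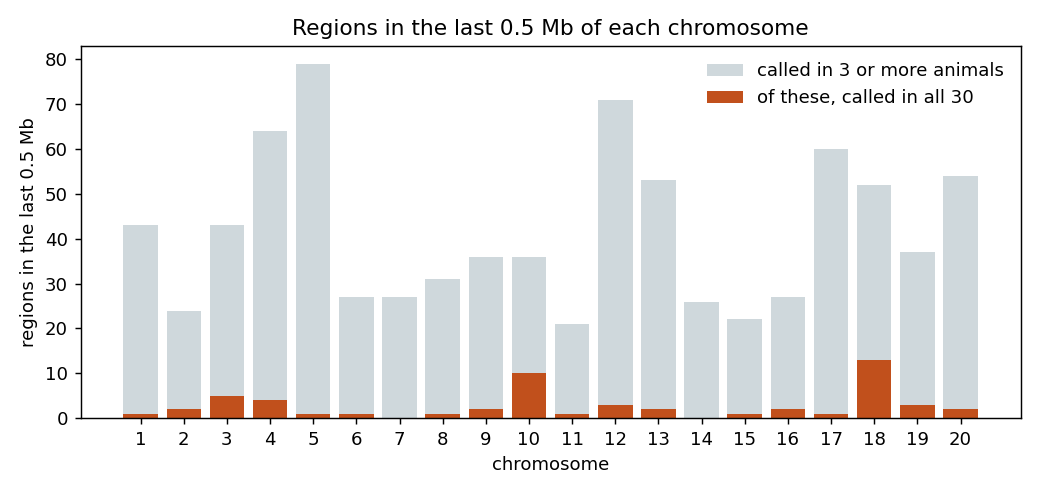
Number of regions in the last 0.5 Mb of each of 20 chromosomes, with all regions called in 3 or more animals in grey and those called in all 30 animals in orange. Chromosome 18 with 13 and chromosome 10 with 10 hold more of the latter than the other chromosomes, which have 5 or fewer.

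The highest peaks at the ends clustered on chromosome 17. The region chr17:89394963-89396796, 1834 bp long, had the highest mean, 24.8 ± 6.66 FPM (SD, n = 30). Its height was 9.31 at the lowest, 25.7 at the median and 40.2 at the highest in CON animals. In PF animals these values were 20.1, 25.6 and 33.1, and in PAE animals they were 16.7, 23.8 and 32.8. The groups overlapped, and both the lowest and the highest animal were CON.

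Of the 10 highest end regions, 5 lay within 67557 bp of chromosome 17, from chr17:89387213 to chr17:89454769. That stretch held 14 end regions, and 7 of them were called in all animals. Its second highest, chr17:89452529-89454138, had a mean of 7.86 ± 2.11 FPM. Nearby, chr17:89454379-89454769 had 6.50 ± 2.20 (SD, n = 30 each).

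The other high regions were single. On chromosome 11, chr11:88399998-88400488 reached 7.0 ± 1.55 FPM, with medians of 7.07 in CON, 6.51 in PF and 6.70 in PAE animals. On chromosome 4, chr4:183255477-183256182 reached 6.26 ± 0.961, with medians of 6.50, 6.46 and 6.04 (SD, n = 30 each). All 5 were called in 30 of 30 animals. In the limma fit described next, their log2 differences between groups ran from -0.34 to 0.09, and their adjusted p-values were 0.723 or higher.

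The study asked whether PAE or pair-feeding altered DNAm, so the 3 groups were compared region by region. Log2 heights of all 352026 regions were fitted with limma, with group, labelled sex and lane as terms. Regions with no spread between animals took no part in the moderated test and counted as not differing. The p-values were adjusted over all 352026 regions by the Benjamini-Hochberg method. At a false discovery rate (FDR) of 0.05, 0 of 7345 end regions differed between PAE and CON animals, against a background of 0.000284% of all regions. Between PAE and PF animals it was 0 as well, against 0% of all regions, and between PF and CON animals 0, against 0%. The lowest adjusted p-value of an end region was 0.667, 0.992 and 0.777 in the 3 comparisons. Fisher's exact test of called against uncalled animals gave 0 end regions at that FDR in each comparison, against 0% of all regions. The few animals per group limit how small its p can be, and the adjustment ran over 352026 regions. This result therefore cannot decide whether end regions differ, and no conclusion is drawn from it.

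At an unadjusted p under 0.05, the shares at the ends were close to those of all regions. Between PAE and CON animals, 455 end regions were lower in PAE (6.19%; background 5.97%) and 100 higher (1.36%; background 1.34%). Between PAE and PF animals, 235 were lower in PAE (3.20%; background 2.93%) and 120 higher (1.63%; background 1.5%). Between PF and CON animals, 331 were lower in PF (4.51%; background 4.37%) and 168 higher (2.29%; background 2.06%). The median log2 difference of the end regions was -0.054, -0.028 and -0.024 in these comparisons, against -0.054, -0.023 and -0.031 over all regions. PAE and PF share the CON animals, so the comparisons are not independent of each other. By Fisher's exact test, 43 end regions were lower in PAE than in CON at that p (0.585%; background 0.612%) and 18 higher (0.245%; background 0.252%). Between PAE and PF it was 49 lower (0.667%; background 0.503%) and 24 higher (0.327%; background 0.244%). Between PF and CON it was 38 lower (0.517%; background 0.448%) and 32 higher (0.436%; background 0.337%).

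**Figure D4:**
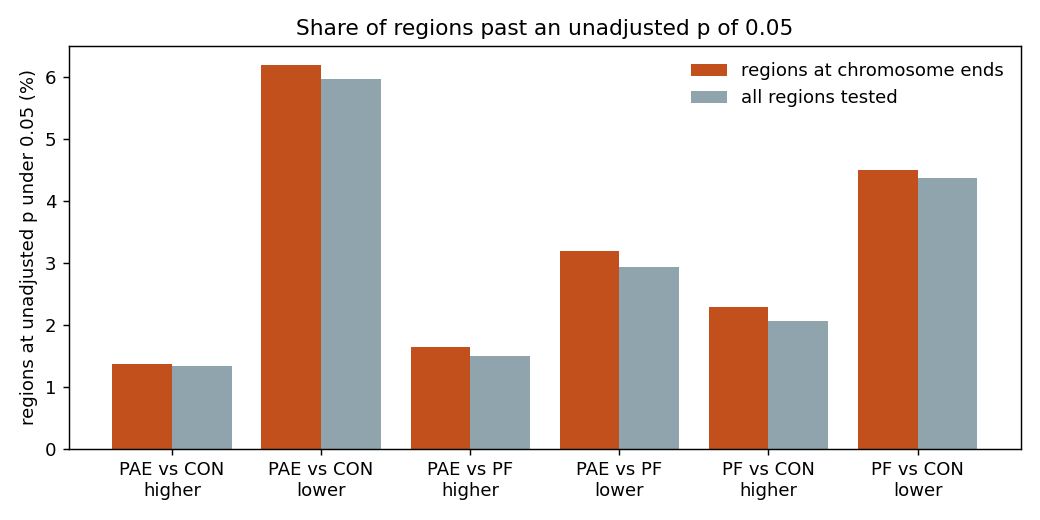
Percentage of regions past an unadjusted p of 0.05 in limma, for each comparison and direction, with end regions in orange and all 352026 regions in grey. The bars of each pair are close. The tallest pair is that of regions lower in PAE than CON animals, with 6.19 against 5.97%.

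The balance of directions depended on how libraries were scaled. Of the end regions past the unadjusted p between PAE and CON, 82.0% were lower in PAE. This share was 87.5% with each animal's own floor, 67.0% with median ratio scaling and 58.8% after quantile normalization. The same shares over all regions were 81.7, 86.8, 65.7 and 57.0%. Between PAE and PF it was 66.2%, against 56.3% with each animal's own floor, 57.8% with median ratio scaling and 54.6% after quantile normalization (all regions 66.1, 55.7, 53.9 and 50.1%). Between PF and CON it was 66.3%, against 79.0% with each animal's own floor, 61.8% with median ratio scaling and 57.8% after quantile normalization (all regions 68.0, 81.3, 62.8 and 57.3%).

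Without the term for labelled sex, 0 end regions passed the FDR in each comparison, against 0.000284% of all regions between PAE and CON and 0% in the others. At the unadjusted p, 462 were lower (6.29%; background 5.95%) and 97 higher (1.32%; background 1.35%) in PAE than CON. In PAE than PF, 253 were lower (3.44%; background 3.07%) and 114 higher (1.55%; background 1.41%). In PF than CON, 306 were lower (4.17%; background 4.09%) and 163 higher (2.22%; background 2.05%).

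Single chromosome ends varied in their share of regions lower in PAE than CON. It was highest on chromosome 12, with 59 of 603 end regions (9.78%) against 7.11% of its rest, and lowest on chromosome 18, with 5 of 211 (2.37%) against 6.0% of its rest. On 9 of the 20 chromosomes the share was higher at the end than in the rest. The difference between ends was not tested. Of the end regions called in either of 2 animals, a fraction of 0.321 to 0.534 was called in both. The median fraction over the 435 pairs was 0.387 for animals of the same group and 0.386 for animals of different groups.

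Among the end regions called in 10 or more animals, the 2 with the smallest unadjusted p in each direction of each comparison are described here. Since they were taken for their small p, such differences tend to be overstated, and none passed the FDR. The smallest p belonged to chr5:173109295-173109777, 595284 bp from the last peak of chromosome 5. It was called in 10 of 10 PAE animals, with heights of 0.860 at the lowest, 1.19 at the median and 1.66 at the highest. It was called in 5 CON animals (lowest 0.438, median 0.649, highest 1.54) and in 6 PF animals (0.438, 0.887 and 1.27). All PAE animals lay above the floor, but the upper parts of the 3 groups overlapped.

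The log2 difference of this region was 1.02 ± 0.23 (SE) between PAE and CON (unadjusted p = 7.1e-05, adjusted p = 0.667). It was 0.79 ± 0.23 between PAE and PF (unadjusted p = 0.00129, adjusted p = 0.992). PAE animals were higher than CON in 4 of 4 lanes holding both groups, and higher than PF in 3 of 3. When lane was instead subtracted from the heights ahead of the fit, which leaves the uncertainty of that step out of the test, this was the only end region to pass the FDR (adjusted p = 0.0457, PAE versus CON). It was 1 of 7345, against 37 of all 352026 regions (0.0105%) in that fit. Between PF and CON that fit gave 0 end regions, against 0.0119% of all regions.

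The other region higher in PAE than CON was chr12:51106764-51107908. It was called in 7 PAE animals (lowest 0.438, median 0.966, highest 1.26) but in 1 CON animal, at 1.22, and in 4 PF animals. Its log2 difference was 0.90 ± 0.25 (SE; unadjusted p = 0.000947, adjusted p = 0.667). Lower in PAE than CON was chr5:172629340-172630044, called in 9 CON animals (0.438, 0.894 and 1.12), 6 PF animals (0.438, 0.566 and 0.877) and 2 PAE animals. One PAE animal was at 1.29, above every CON animal. Its log2 difference was -0.75 ± 0.20 (SE; unadjusted p = 0.000857, adjusted p = 0.667).

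The region chr3:175445017-175446261 was called in all 30 animals, so its values do not rest on the floor. Its heights were 0.752 at the lowest, 1.19 at the median and 1.73 at the highest in CON animals. They were 0.805, 1.11 and 1.67 in PF animals, and 0.538, 0.763 and 1.43 in PAE animals. PAE differed from CON by -0.64 ± 0.18 in log2 (SE; unadjusted p = 0.00113, adjusted p = 0.667). PAE was lower in 4 of 4 lanes, though 1 PAE animal lay above the CON median. It lies 2254308 bp from the last peak, and the region named for Mtg2 lies near it.

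Between PAE and PF animals, chr12:50098821-50099494 was higher in PAE, where 8 animals had a peak (lowest 0.438, median 0.694, highest 1.15) against 6 PF animals (highest 0.659). Its log2 difference was 0.68 ± 0.19 (SE; unadjusted p = 0.00119, adjusted p = 0.992). Lower in PAE was chr5:171230732-171231497, called in 9 PF animals (0.438, 0.946 and 1.17), 5 CON animals and only 1 PAE animal, at 0.787. The log2 difference was -0.83 ± 0.21 (SE; unadjusted p = 0.000355, adjusted p = 0.992).

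The other region lower in PAE than PF, chr12:51014099-51014840, was called in 10 PF animals (0.983, 1.24 and 1.69) and 5 PAE animals (0.438, 0.613 and 1.68). Its log2 difference was -0.98 ± 0.28 (SE; unadjusted p = 0.00112, adjusted p = 0.992), and PAE was lower in 2 of 3 lanes holding both groups. CON animals, with 0.438, 1.22 and 1.79, resembled PF animals in their median.

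Between PF and CON animals, chr13:113352900-113353696 was higher in PF. A peak was called in 9 PF animals (lowest 0.438, median 0.840, highest 1.10) and in 2 CON animals, 1 of them at 1.12. The log2 difference was 0.86 ± 0.24 (SE; unadjusted p = 0.00117, adjusted p = 0.777). The second, chr10:111835002-111836881, was called in 8 PF animals (0.438, 1.19 and 1.59), 3 CON and 4 PAE animals, and its log2 difference was 0.83 ± 0.25 (SE; unadjusted p = 0.00193, adjusted p = 0.777).

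Both regions lower in PF than CON lay about 0.1 Mb apart on chromosome 8. The first, chr8:131931297-131931839, was called in all CON animals (0.677, 1.12 and 1.53) and 6 PF animals (0.438, 0.587 and 1.39), a log2 difference of -0.93 ± 0.23 (SE; unadjusted p = 0.000285, adjusted p = 0.777). All 10 PAE animals had a peak there as well, with a median of 0.819. The second, chr8:132037273-132038023, was called in 7 CON animals (0.438, 0.898 and 1.13) and 3 PF animals, with the highest at 0.795. Its log2 difference was -0.84 ± 0.21 (SE; unadjusted p = 0.000352, adjusted p = 0.777). Apart from chr12:51014099-51014840, each of these regions had the same direction in every lane holding both groups.

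The size of several of these differences depended on how a peak was required to match its region. When peaks had to cover 50% of a region, the log2 difference was -0.36 at chr3:175445017, -0.31 at chr5:172629340, 0.45 at chr12:50098821, -0.14 at chr5:171230732, 0.46 at chr10:111835002 and 0.21 at chr13:113352900. With peaks of q below 0.01, it was 0.54 at chr10:111835002. When animals without a peak were set to 0 with a pseudocount of 0.1 in place of the floor, the differences grew at regions with uncalled animals, to 2.57 at chr5:173109295 (PAE versus CON) and 2.61 at chr13:113352900.

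**Figure D5:**
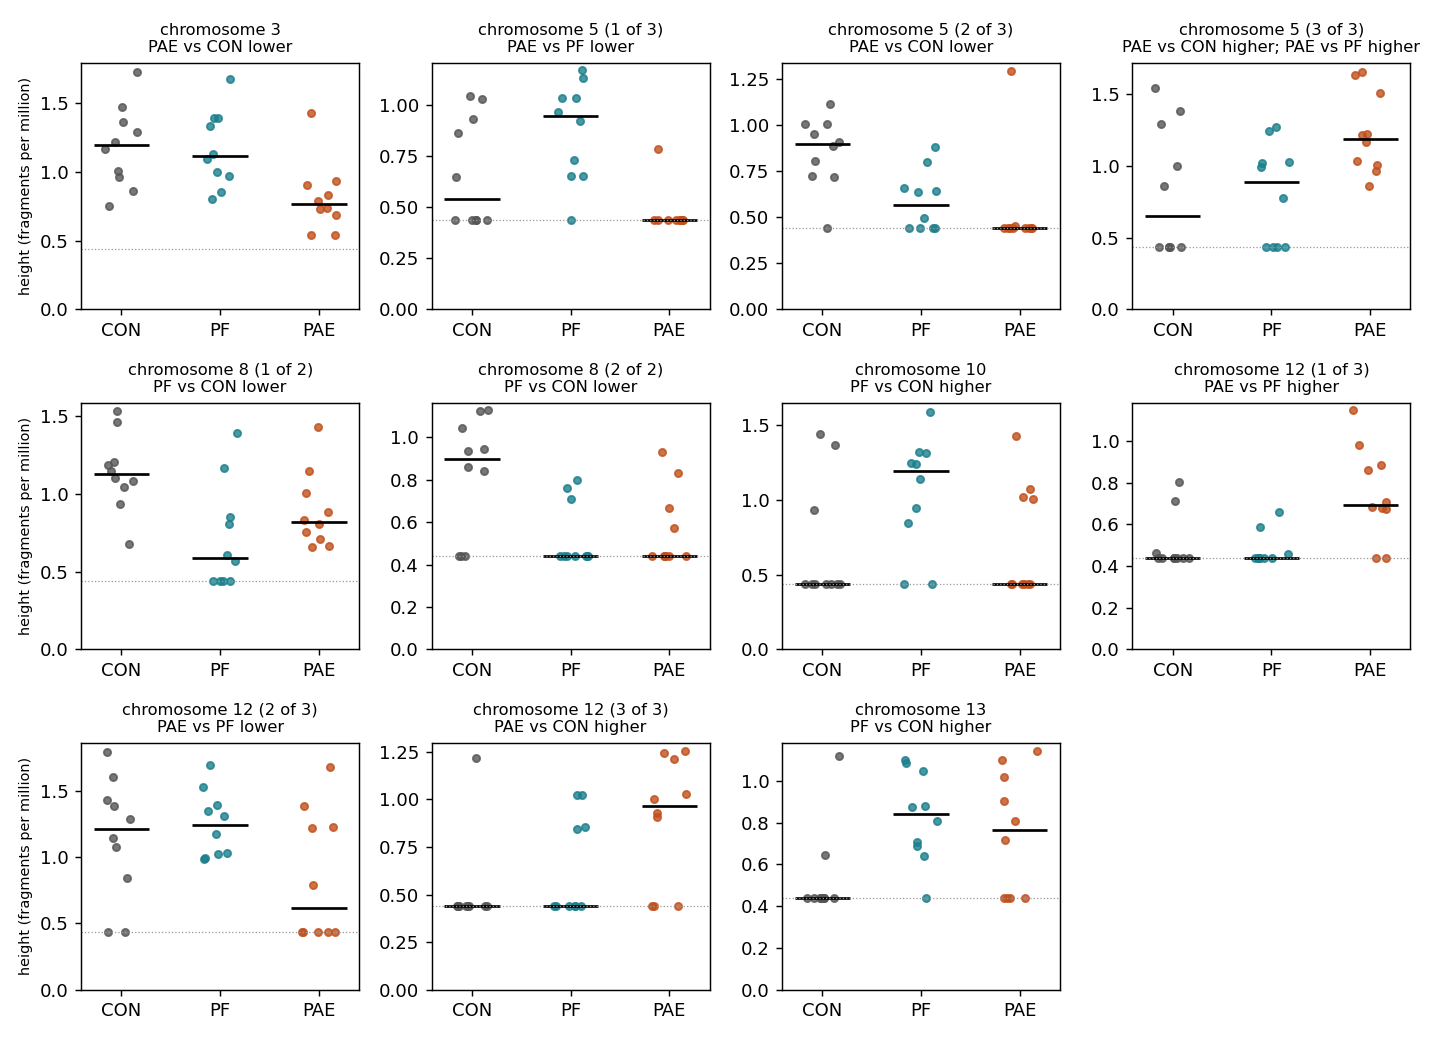
Height (FPM, fragments per 1000000) at the 11 end regions described above, in 10 CON, 10 PF and 10 PAE animals. These regions had the smallest unadjusted p of their comparison and direction among end regions called in 10 or more animals. Points are animals, black lines medians, and the dotted line is the floor of 0.438. The groups overlap in every panel. Some animals sit at the floor in each panel, few or many, except on chromosome 3, where all 30 animals have a peak.

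For 10 end regions, the supplementary tables of the study give a gene, used here only as a name with its feature. The study selected these regions on the same animals, so their values describe them and are not independent evidence of a direction. They were called in 3 to 10 of 30 animals, and most animals were therefore at the floor.

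Genes of neuronal shape and cell polarity came first among them. Pard3, a scaffold of the polarity complex, had an intronic region, chr19:60332124-60332460, called in 3 CON animals (highest 1.65), 1 PF animal (1.19) and no PAE animal. Shtn1, which encodes shootin and acts in axon outgrowth, had an intronic region, chr1:280204152-280204474, called in 3 CON animals, with the highest at 0.722, and in no other animal. In these 2 genes a peak was thus seen in few animals, mostly CON.

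Among genes of transport and signalling, Slc17a9, the vesicular nucleotide transporter, had an intronic region, chr3:176242606-176243047. It was called in 4 CON animals (highest 1.12), 4 PF animals (highest 1.17) and no PAE animal. Gpr158, a receptor of neurons, had a region over an exon, the 3'UTR and downstream sequence, chr17:88654010-88654549, called in 2 PF animals and 1 PAE animal, with no height above 0.569. Cdcp1, a transmembrane protein phosphorylated by Src kinases, had an intronic region, chr8:132265596-132265945, called in no CON animal, 5 PF animals (highest 0.966) and 4 PAE animals (highest 1.03).

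Top3b and Mtg2 act on nucleic acids and ribosomes. Top3b, a topoisomerase of RNA and DNA, had a region across an exon and an intron, chr11:88352394-88352917, called in 3 CON (highest 1.20), 2 PF (0.708) and 2 PAE animals (0.584). Mtg2, a GTPase of the mitochondrial ribosome, had a region across an exon and an intron, chr3:175462209-175462633, called in 2 CON (highest 1.44), 6 PF (1.35) and 2 PAE animals (0.787). Of the 10, it was called in the most animals.

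The last 3 genes are known mainly outside neurons. Itgbl1, a secreted protein related to integrin beta subunits, had an intronic region, chr15:110369042-110369349, called in 3 CON (highest 1.56), 2 PF (0.854) and no PAE animals. Myom1, a protein of the sarcomere M-band, had a region across an exon and an intron, chr9:119369909-119370410, called in 2 CON (highest 1.12), no PF and 3 PAE animals (1.16). Cd34, a surface protein of blood progenitors and endothelium, had a region downstream of it, chr13:113712584-113712951, called in no CON, 3 PF (highest 0.759) and 2 PAE animals (0.825). Cd34 was the closest of the 10 to a chromosome end, at 308158 bp.

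In the order of the GRCr8 assembly, which has other coordinates, the neighbours of Mtg2 were Ss18l1 and Hrh3, those of Itgbl1 were Nalcn and Fgf14, and those of Shtn1 were Eno4 and Vax1. Pard3 lay between Gabarapl4 and Nrp1, and Cd34 between Plxna2 and Cd46. For the regions without a gene name, no annotation of the build was used here.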

How the data were processed

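meDIP-seq peaks of 30 libraries were used. The authors mapped reads with BWA (build Rn6), filtered out duplicates, unpaired reads and poor mappings using samtools, and ran MACS2 (2.1.4 in the file headers) on each library with no control. The deposited signal is the pileup at each summit, not scaled for library size. The deposited fold enrichment was taken as the ratio of pileup to local background, with 1 added to each, and gave the latter. The deposited -log10 q-value set a stricter peak threshold of 0.01. Chromosomes 1 to 20 were used.

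Group tests used limma 3.58.1 with a trended prior (R 4.3.3), and tables used pandas 2.3.3, numpy 2.4.6 and scipy 1.17.1 (Python 3.11.15). The fit was also run on simulated heights with known changes. These had no lane effects, and the changes were placed only in regions above the floor in enough animals. That run therefore does not bear on regions called in few animals. Comparisons of ends with the rest are descriptions, with the spread over animals. The set of regions and the rules were chosen with earlier results of these data known. Regions named were the 2 of smallest unadjusted p per comparison and direction among those in 10 or more animals, the 5 highest, and the 10 matching (within 1 bp) a region with a gene in the study's tables. Animals share dams, and p-values treat them as separate. No sequence was printed, since no Rn6 genome was used here. Alternatives covered the window, the minimum of animals, peak thresholds, scaling, the floor, covariates, dams and single animals.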

Additional observations from a re-analysis of the deposited data

Results flagged for a closer look

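Of 87 sets of 10 animals checked, 15 had an animal whose gap to the next exceeded the 95% limit of Dixon's test, and chance alone flags about 1 in 20 sets, 5%. Values at the floor make such gaps common. The PF animal with the fewest end regions for its peaks had a ratio of observed to expected of 0.834, and end regions were 2.01% of its regions. Among the regions compared between groups, the highest PAE animal stood apart at chr3:175445017 (1.43 FPM), chr5:171230732 (0.787) and chr5:172629340 (1.29), and the highest CON animal at chr12:51106764 (1.22) and chr13:113352900 (1.12). At chr4:183255477, one of the highest regions, 1 PAE animal was at 8.71. At Top3b the highest animal stood apart in CON (1.20), PF (0.708) and PAE (0.584). The others were the highest PF animals at Cd34 (0.759), Gpr158 (0.569) and Pard3 (1.19) and the highest CON animal at Itgbl1 (1.56).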

How the results depend on the processing

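The ratio of observed to expected end regions was 0.608 for the last 1 Mb, 0.733 for 2 Mb and 1.002 for 5 Mb, where its direction turned, 0.856 for regions in 10 or more animals and 0.845 against the median 3 Mb window. The log2 height difference was -0.084, -0.064 and -0.0020 for 1, 2 and 5 Mb. The percentage called in all animals was 4.99 for the last 1 Mb, 3.02 for regions in 2 or more animals, 8.50 for regions in 10 or more, 3.29 for peaks with q below 0.01 and 1.22 for peaks covering 50% of the region.

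Shares of all regions stand in brackets. With the lane effect removed before the fit, 1 end region passed the FDR between PAE and CON (37 of all regions) and 0 between PF and CON (42 of all regions). At an unadjusted p there were 842 lower and 200 higher for PAE-CON, or 11.5 and 2.72% (10.7 and 2.68%), 464 and 245 for PAE-PF, or 6.32 and 3.34% (5.81 and 3.15%), and 672 and 370 for PF-CON, or 9.15 and 5.04% (9.07 and 4.4%). For PAE-CON, quantile normalization gave 251 lower and 176 higher, or 3.42 and 2.40% (3.24 and 2.45%), and median ratio scaling 296 lower, or 4.03% (3.95%). For the 272 end regions in all 30 animals, brackets give the shares of the 11914 such regions. For PAE-CON 26 were lower and 4 higher, or 9.56 and 1.47% (10.2 and 0.663%). For PAE-PF it was 8 and 1, or 2.94 and 0.368% (4.17 and 1.05%). For PF-CON it was 9 and 6, or 3.31 and 2.21% (4.81 and 1.02%). Of these calls 86.7, 88.9 and 60% were lower, against 93.9, 79.9 and 82.4% over the 11914 such regions. These end percentages rest on few calls. Libraries labelled male alone gave 233, 147 and 197 lower, or 3.17, 2.0 and 2.68% (3.21, 2.0 and 2.61%), and 74 higher for PF-CON, or 1.01% (0.86%). Those labelled female alone gave 310, 176 and 252 lower, or 4.22, 2.40 and 3.43% (4.13, 2.75 and 3.66%). They gave 136, 152 and 158 higher, or 1.85, 2.07 and 2.15% (1.93, 1.93 and 2.25%). Each animal's own floor gave 107 higher for PF-CON, or 1.46% (1.27%). Fisher's exact test gave 43 and 18, 49 and 24, and 38 and 32, with the shares given in the results above. The cause of these changes was not tested. The smaller numbers for regions in all 30 animals and for one labelled sex come with fewer regions and fewer animals.

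Leaving out single animals kept 0 end regions at the FDR in each comparison. At an unadjusted p under 0.05 it gave 305 to 555 lower and 84 to 125 higher for PAE-CON. The ranges were 171 to 278 and 97 to 149 for PAE-PF, and 265 to 441 and 127 to 188 for PF-CON. Shares of all regions in these fits are not given here, so the ranges do not describe end regions in particular. No paired analysis was possible because the groups come from different dams and replicate numbers follow the order of the samples. The split by labelled sex rests on labels that 18 of 30 libraries went against, so it does not bear on sex. Heights under the floor of 0.438 cannot be seen, and depth limits what can be called in a single animal.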
